A study of Arabidopsis thaliana with 6 samples.

Results

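The circadian clock genes examined here were 10 genes of the core oscillator of Arabidopsis thaliana, CCA1, LHY, PRR9, PRR7, PRR5, TOC1, ELF3, ELF4, LUX and GI, of 27444 protein-coding genes on the nuclear chromosomes. They were chosen by locus identifier because of their known role in the clock, and the reference annotation carries the matching symbol for each, with LUX listed as PCL1. For each gene, the chromatin regions were collected from 2500 bp before the annotated transcription start site (TSS) to 1000 bp past the gene end, a stretch called the gene window below. Chromatin came from whole seedlings at 5 days after germination that had received 25 µM dexamethasone for 2 h, according to the labels. The WUS-GR seedlings carried WUSCHEL (WUS), the homeodomain protein that maintains shoot stem cells, joined to mCherry and to a glucocorticoid receptor domain that lets dexamethasone bring it into the nucleus, expressed from the ubiquitously active promoter pUBI10. Col-0 seedlings had no transgene and received the same treatment. Pull-downs were made with RFP-trap, which binds mCherry, with an antibody to histone H3 acetylated at lysines 9 and 14 (H3K9/K14ac), and with an antibody to histone H3 trimethylated at lysine 27 (H3K27me3).

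Each of the 6 combinations of genotype and pull-down was represented by 1 list of genome windows in which that genotype had more signal than the other. The lists hold positions without scores or read counts, so the depth is unknown and no height or statistical test can be given, and there were no replicates. A region stands for a run of adjoining windows, each 100 bp long for RFP-trap and 500 bp long for the histone marks. A histone region in the WUS-GR list is called gained and one in the Col-0 list is called lost. After removal of opposing histone regions closer than 73 bp, the WUS-GR and Col-0 lists held 10087 and 580 RFP-trap regions, 5487 and 5110 H3K9/K14ac regions, and 671 and 2570 H3K27me3 regions. A single transgenic line was used, the promoter is active in nearly all cells and not only in stem cells, and a window that changed in a few cells cannot be told apart from one that changed weakly in all of them. Seedlings were grown in cycles of 16 h light and 8 h dark, and the time of day of harvest is not given in the sources used here, although the clock genes are transcribed at different times of day.

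The plant clock is built from repressors that act in turn. The MYB-related proteins CCA1 and LHY accumulate at dawn and repress genes of the evening through the evening element, a short promoter sequence. The pseudo-response regulators PRR9, PRR7 and PRR5 follow through the day and TOC1 at dusk, and they repress CCA1 and LHY. The evening complex, made of the scaffold protein ELF3, the small protein ELF4 and the DNA-binding protein LUX, represses PRR9 and other clock genes at night, and GI stabilises the blue light receptor ZTL, which targets TOC1 for degradation.

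The promoter sequences under the WUS-GR regions are shown first because they hold the known clock elements to which the results below refer. They were read from the TAIR10.1 assembly of RefSeq and are written 5′ to 3′ along the strand of the gene, and capitals mark the G-box core (CACGTG), the evening element (AAAATATCT or, read from the other strand, AGATATTTT) and the CCA1-binding site (AAAAATCT). The G-box is the usual site of bHLH and bZIP transcription factors, and both other elements are bound by CCA1 and LHY.
CCA1, chr2:19245358-19245443, plus strand, -233 to -148 bp from the TSS: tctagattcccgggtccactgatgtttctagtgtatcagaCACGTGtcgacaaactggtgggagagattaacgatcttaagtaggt
LHY, chr1:37906-37991, minus strand, -120 to -35 bp from the TSS: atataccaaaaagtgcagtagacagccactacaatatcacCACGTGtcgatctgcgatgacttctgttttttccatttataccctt
PRR9, chr2:19232251-19232480, plus strand, -356 to -127 bp from the TSS: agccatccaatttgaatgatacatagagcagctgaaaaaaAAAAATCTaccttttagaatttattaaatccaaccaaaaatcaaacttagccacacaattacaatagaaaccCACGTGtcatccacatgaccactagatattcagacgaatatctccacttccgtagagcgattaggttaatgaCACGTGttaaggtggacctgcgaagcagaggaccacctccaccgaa
PRR7, chr5:642186-642271, minus strand, -241 to -156 bp from the TSS: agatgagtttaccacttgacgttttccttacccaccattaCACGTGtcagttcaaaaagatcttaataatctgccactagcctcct
PRR5, chr5:8359777-8359942, minus strand, -1396 to -1231 bp from the TSS: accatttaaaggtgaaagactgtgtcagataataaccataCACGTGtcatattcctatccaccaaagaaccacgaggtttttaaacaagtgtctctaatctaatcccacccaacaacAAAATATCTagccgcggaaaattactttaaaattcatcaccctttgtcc
TOC1, chr5:24674801-24674860, plus strand, -162 to -103 bp from the TSS: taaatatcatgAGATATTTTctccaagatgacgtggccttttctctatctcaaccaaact
LUX, chr3:17182809-17183000, plus strand, -233 to -42 bp from the TSS: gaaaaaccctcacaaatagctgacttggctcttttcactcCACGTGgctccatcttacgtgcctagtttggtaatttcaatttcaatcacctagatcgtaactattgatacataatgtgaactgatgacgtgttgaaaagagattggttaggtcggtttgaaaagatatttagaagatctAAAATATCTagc
GI, chr1:8060902-8061200, plus strand, -849 to -551 bp from the TSS: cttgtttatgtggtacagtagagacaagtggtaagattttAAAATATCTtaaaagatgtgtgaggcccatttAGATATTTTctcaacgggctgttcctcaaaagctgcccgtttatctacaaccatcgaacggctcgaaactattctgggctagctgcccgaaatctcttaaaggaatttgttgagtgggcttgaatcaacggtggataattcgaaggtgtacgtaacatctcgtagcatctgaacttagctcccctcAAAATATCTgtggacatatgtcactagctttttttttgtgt
Each stretch lies within a WUS-GR region and reaches up to 40 bp to either side of the marked elements. All lie before the TSS of the named gene, and that of PRR5 partly overlaps the long non-coding RNA gene AT5G03755. The stretches of CCA1, LHY and PRR7 are each centred on 1 G-box, the stretch of PRR9 holds 2 G-boxes and a CCA1-binding site, and that of GI holds 3 evening elements. PRR5 and LUX have both a G-box and an evening element, and TOC1 has an evening element alone.

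WUS-GR regions were present at 9 of the 10 clock genes, all but ELF3, against 38.1% of protein-coding genes. Together these 9 genes had 14 regions made of 56 windows, and 4 of the genes had at least 2 regions, against 14.2% of protein-coding genes. The gene windows of the clock genes were longer than most, with a median of 7253 bp against 5578 bp for protein-coding genes. Among the 24512 protein-coding genes with a gene window in the range of the clock genes, 4160 to 9540 bp, 39.3% had a WUS-GR region. That range takes in most of the 27444 protein-coding genes, so this share does not adjust for the longer gene windows of the clock genes. Positions below are counted along the gene from the TSS at 0, with negative values before it.

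**Figure D1:**
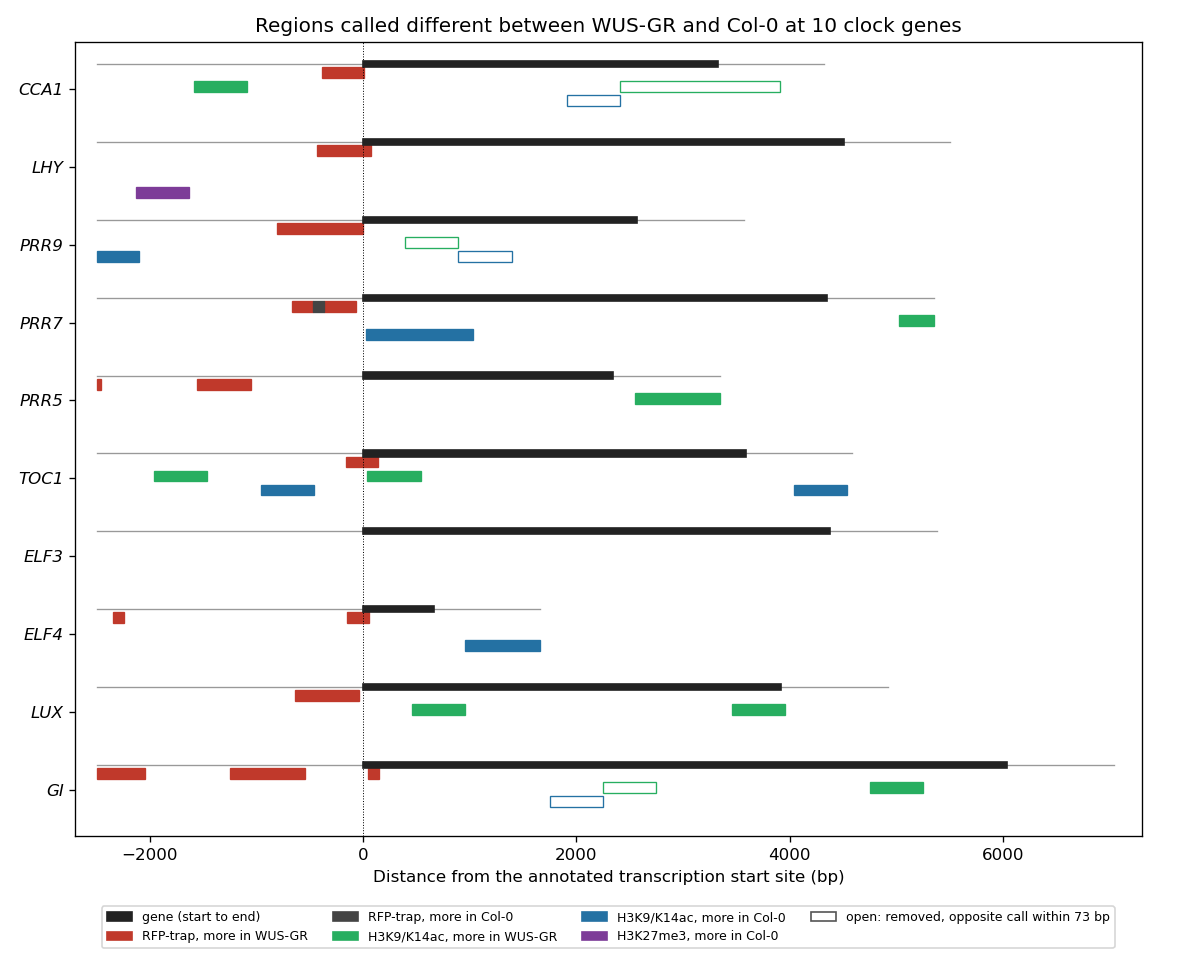
Map of the called regions at the 10 clock genes, 1 row per gene, with the distance from the TSS in bp along the gene on the horizontal axis. Black bars are the genes, thin lines the gene windows, coloured bars the regions of each list (clipped at the gene window), and open bars the opposing H3K9/K14ac regions removed by the 73 bp rule. Red WUS-GR regions lie at or before the TSS at 9 genes, and ELF3 has no region of any kind.

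At the dawn genes the WUS-GR region reached the start of the gene. CCA1 (AT2G46830, chromosome 2, 19245591 to 19248915, plus strand) had 1 region of 400 bp from -390 to 9 bp, which takes in 10 bp of the 5′ UTR. LHY (AT1G01060, chromosome 1, 33365 to 37871, minus strand) had 1 region of 500 bp from -429 to 70 bp. The regions of these partly redundant repressors thus began and ended at similar distances from their start sites.

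Among the pseudo-response regulators, PRR9 (AT2G46790, chromosome 2, 19232607 to 19235179, plus strand) had the longest single region, 800 bp from -806 to -7 bp. PRR7 (AT5G02810, chromosome 5, 637681 to 642030, minus strand) had a region of 300 bp from -370 to -71 bp and another of 200 bp from -670 to -471 bp. The farther one overlaps the divergent gene RHL2 (AT5G02820), whose TSS is at 642554. The stretch between the 2 WUS-GR regions of PRR7, from -470 to -371 bp, was called in the opposite direction, with more RFP-trap signal in Col-0. This was the sole Col-0 RFP-trap region at a clock gene, so that 1 of the 10 genes had one, against 2.39% of protein-coding genes. It lies on a tRNA gene (AT5G02815), and it was the only window of the Col-0 RFP-trap list at a tRNA gene, 1 of 706 (0.142%), whereas 80 of 42402 windows of the WUS-GR list lay at one (0.189%).

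PRR5 (AT5G24470, chromosome 5, 8356204 to 8358546, minus strand) was the clock gene with the most distant regions. They ran from -1554 to -1055 bp and from -2754 to -2455 bp, and the second straddled the edge of the gene window. Both lie nearer to the non-coding RNA gene AT5G03755 (8359836 to 8360226, plus strand), to which their midpoints were assigned. TOC1 (AT5G61380, chromosome 5, 24674963 to 24678550, plus strand), the dusk member of the family, had 1 region of 300 bp centred on the start site, from -162 to 137 bp.

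In the evening complex, LUX (AT3G46640, chromosome 3, 17183042 to 17186959, plus strand) had 1 region of 600 bp from -641 to -42 bp. It lies in the promoter shared with the divergent gene AT3G46630, and its midpoint was nearer to the TSS of that gene. ELF4 (AT2G40080, chromosome 2, 16734294 to 16734953, minus strand) had a region of 200 bp over its TSS, from -147 to 52 bp, and a single window of 100 bp from -2347 to -2248 bp that lies at the neighbouring gene AT2G40085. ELF3 (AT2G25930, chromosome 2, 11058944 to 11063324, plus strand) had none, so the complex was marked at the genes of its DNA-binding and small subunits and not at that of its scaffold.

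GI (AT1G22770, chromosome 1, 8061751 to 8067790, plus strand) had the most regions. They ran from -2650 to -2051 bp, from -1250 to -551 bp, and from 50 to 149 bp inside the 5′ UTR. The farthest one straddled the edge of the gene window. GI also had the longest gene window, 9540 bp, and 13.1% of it lay under WUS-GR windows, against 13.2% for PRR9 and 4.23% to 9.34% for the other 7 genes with a region.

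The length of DNA under WUS-GR windows differed between the clock genes. GI had 1250 bp, PRR9 800 bp, LUX 600 bp, PRR5 546 bp, LHY and PRR7 500 bp each, CCA1 400 bp, and ELF4 and TOC1 300 bp each. The median over the 9 genes with a region was 500 bp, against 400 bp over the 10452 protein-coding genes with one, and 6 of the 9 were above 400 bp. As many bp as GI were found at 9.89% of those protein-coding genes and as many as PRR9 at 26.2%, whereas 76.2% had at least the 300 bp of ELF4 and TOC1.

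**Figure D2:**
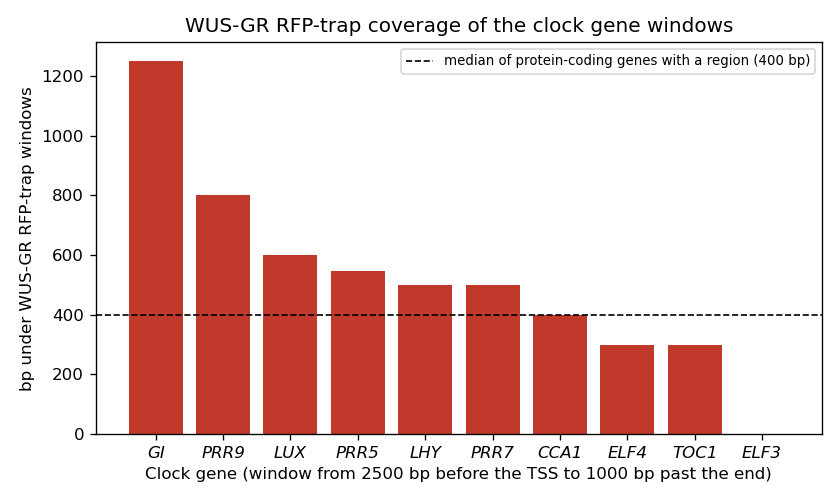
Bars give the bp of each clock gene window that lay under WUS-GR RFP-trap windows, sorted from the highest, with 1 list and no error. The dashed line is the median of protein-coding genes with a region, 400 bp, and 6 clock genes, led by GI with 1250 bp, exceed it.

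ELF3 was the 1 clock gene with no region of any of the 6 lists in its gene window, a state shared by 25.5% of protein-coding genes. The WUS-GR region nearest to ELF3 ended 13544 bp outside its gene window, and 14.8% of protein-coding genes lay as far from one or farther. A lost H3K9/K14ac region was 2177 bp outside the gene window and a gained one 3677 bp outside.

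Except in PRR5, the WUS-GR region nearest to the TSS had its midpoint between -407 and 99 bp, while the additional regions of PRR5 and GI lay as far out as -2604 and -2351 bp. The midpoint of the region nearest to the TSS lay at -13 bp in TOC1, -47 bp in ELF4, 99 bp in GI, -179 bp in LHY, -191 bp in CCA1, -220 bp in PRR7, -342 bp in LUX, -407 bp in PRR9 and -1304 bp in PRR5. The median distance was 191 bp over these 9 genes, against 658.5 bp over the protein-coding genes with a region, where the quartiles were 150 and 1790 bp. The nearest region was before the TSS at 8 of the 9 clock genes, GI being the exception, against 61.9% of the protein-coding genes. At 100 bp before the TSS, 7 of the 10 clock genes (70%) were under a WUS-GR window, against 11.1% of protein-coding genes, whose own highest share was 11.6% at -50 bp. The position of -100 bp was the highest for the clock genes, and at -150 and -50 bp the count was 6. The shares of protein-coding genes include those without any WUS-GR region.

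**Figure D3:**
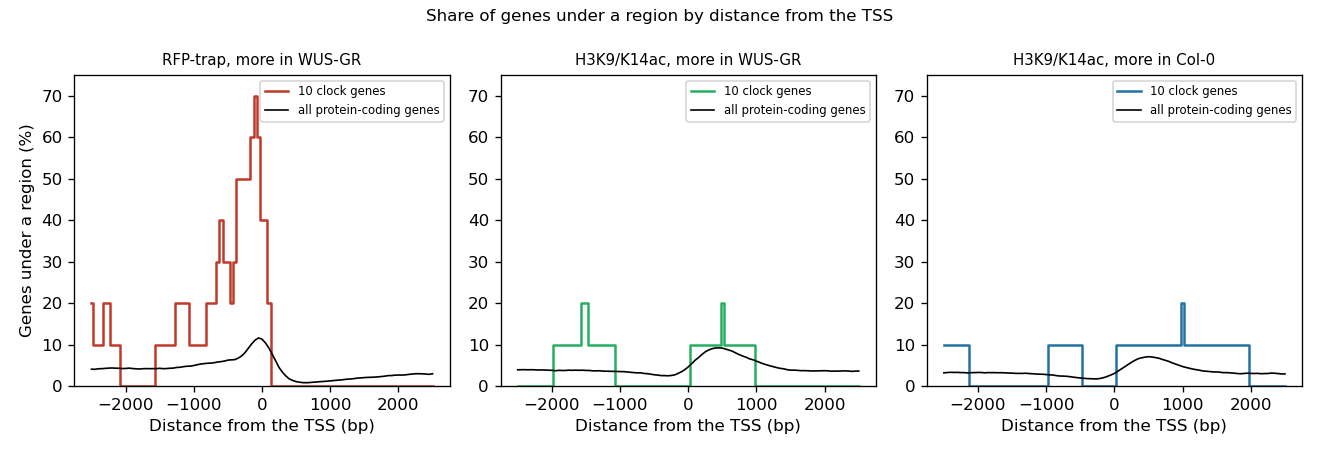
Share of genes (percent) under a window of the WUS-GR RFP-trap, gained H3K9/K14ac and lost H3K9/K14ac lists (panels), by distance from the TSS in bp, for the 10 clock genes and for all protein-coding genes. In the WUS-GR RFP-trap panel the clock genes reach their highest share, 70%, at -100 bp, against 11.1% of protein-coding genes there. In the acetylation panels the clock genes do not pass 20%.

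Relative to the clock gene itself, nearly all of the DNA in these regions lay before the TSS, as far out as -2754 bp. Some of it lay at neighbouring genes, since regions of PRR5, PRR7, ELF4 and LUX were assigned to those by midpoint. Of the bases of the 14 regions, 5228 were upstream of the clock gene (93.4%), 331 were in its 5′ UTR and 41 in an intron, and no base was in its coding sequence or 3′ UTR. When each region was classed by the gene to which its midpoint was assigned, neighbours included, 9 of the 14 were upstream and 3 in a 5′ UTR, whereas 53.8% of the 10087 WUS-GR regions were upstream and 15.9% in a 5′ UTR. The other 2 were those of PRR5, in an exon of the non-coding RNA gene and past its end.

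Sequence words were then counted on both strands of these regions. CACGTG, the G-box core, occurred in 6 of the 14 regions (42.9%), against 22.6% of all WUS-GR regions, and in the stretch of 300 bp around the midpoint it was present in 4 of 14, against 18.6%. Clock gene windows held 8 G-boxes in all, of which 7 lay inside WUS-GR regions, although these regions made up 7.35% of the clock gene windows (5196 of 70685 bp). Genome-wide, 20.6% of G-boxes lay inside a WUS-GR region. The 7 were at -193 bp in CCA1, -80 bp in LHY, -244 and -172 bp in PRR9, -201 bp in PRR7, -1356 bp in PRR5 and -193 bp in LUX, and the 1 outside was in the coding sequence of PRR7. In the sequences above, 6 of these 7 G-boxes (85.7%) are followed by TC on at least one strand, the exception being that of LUX, whereas 25.7% of the G-boxes in all WUS-GR regions and 20.2% of those in the genome were. These flanking bases were examined only after the sequences had been seen.

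The evening element was present in 5 of the 14 regions (35.7%), against 3.82% of all WUS-GR regions, and in 4 of 14 of the stretches of 300 bp, against 2.58%. These regions belong to PRR5, TOC1, LUX and GI, genes of the afternoon and evening. The elements inside the gene windows lay at -1279 bp in PRR5, -151 bp in TOC1, -53 bp in LUX, and -809, -777 and -591 bp in GI. The distant region of PRR5 held 2 more, at -2577 and -2626 bp, just beyond its gene window. Of the 13 evening elements in the clock gene windows, 6 lay inside WUS-GR regions, which made up 7.35% of these windows. Unlike the G-box, the element was thus about as often outside these regions as inside. The 7 outside included 3 nearer to the PRR5 TSS than its WUS-GR region, at -187, -292 and -716 bp, and 1 at -536 bp in ELF4. Over the genome 6.86% of evening elements were inside a WUS-GR region.

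The evening element and the G-box were also common in the clock promoters as such. From 250 bp before to 50 bp after the TSS, 4 of the 10 clock genes had an evening element, against 2.82% of protein-coding genes, and 5 had a G-box, against 7.68%. The part that promoter sequence has in the counts over regions was not tested. The CCA1-binding site AAAAATCT was in 2 regions, those of LHY and PRR9, against 8.31% of all regions, and 2 of its 21 copies in the clock gene windows were inside.

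The other words each occurred in at most 3 of the 14 regions. CACATG was in 2 of the 14 regions, against 26.7% of all regions. Words bound by LUX were in 2 regions (GATACG, 8.77% of all regions) and in 3 regions (GATTCG, 12% of all regions). The TCP word GGNCCCAC was in 1, at -150 bp of CCA1, against 5.04%, and CHE, a TCP protein, is a known repressor of CCA1. Only TTAATGG and TGAATGAA were searched here as words of WUS itself, which need not be all the sequences it binds. TTAATGG was in 2 regions, against 9.33% of all regions, and TGAATGAA was in none, against 5.5%. Of the copies in the clock gene windows, 2 of 37 CACATG, 2 of 16 GATACG, 3 of 36 GATTCG, 1 of 1 GGNCCCAC, 2 of 8 TTAATGG and 0 of 1 TGAATGAA lay inside the WUS-GR regions. No 2 sites of different words shared a base within these regions.

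**Figure D4:**
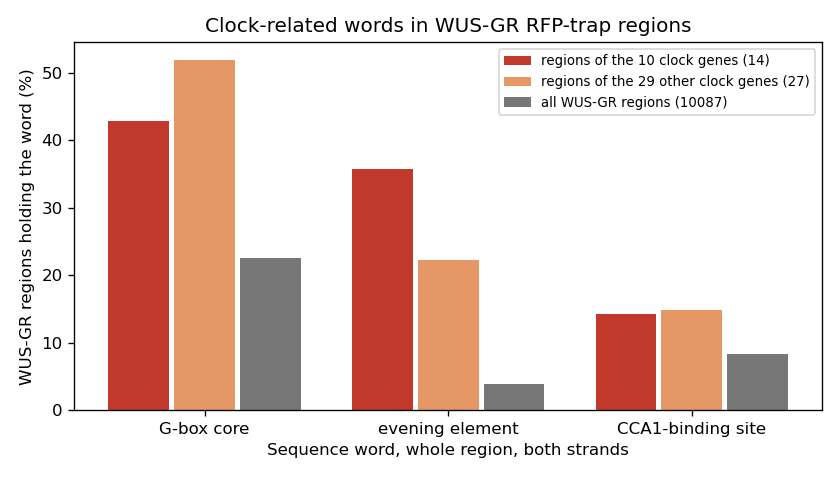
Percent of WUS-GR regions that hold the G-box core, the evening element or the CCA1-binding site on either strand. Bars give the 14 regions of the 10 clock genes, the 27 regions of the 29 other clock genes and all 10087 regions. Between the 10 clock genes and all regions, the evening element (35.7% against 3.82%) and the G-box core (42.9% against 22.6%) have the widest gaps. The other clock genes have 22.2% and 51.9%.

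Histone acetylation, a mark of active promoters, was changed at 8 of the 10 clock genes, against 52.8% of protein-coding genes, and the exceptions were LHY and ELF3. All of these 8 also had a WUS-GR region, a combination found at 23.3% of protein-coding genes. Of the 10452 protein-coding genes with a WUS-GR region, 6394 had it. ELF3, the only clock gene without a WUS-GR region, had no region of any list, so the count of 8 follows from that of changed acetylation. Gained H3K9/K14ac regions were present at 6 genes, CCA1, PRR7, PRR5, TOC1, LUX and GI, against 33.1% of protein-coding genes. Lost H3K9/K14ac regions were present at 4 genes, PRR9, PRR7, TOC1 and ELF4, against 28.8%. PRR7 and TOC1 had both, against 9.16%. These counts depended on the gene window and on single windows of 500 bp. A WUS-GR region with changed acetylation was at 4 clock genes with 1000 bp before the TSS to the gene end, and at 3 with regions of at least 2 windows. Gained acetylation was at 3, 3 and 1 clock genes and lost acetylation at 2, 1 and 2 with, in turn, that shorter window, assignment by midpoint and at least 2 windows. In the same order, the shares of protein-coding genes were 22.9%, 17.9% and 11.7% for gained and 19.5%, 16% and 8.21% for lost acetylation. For the combination with a WUS-GR region, no share over protein-coding genes is available at these settings.

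Few of these acetylation changes were at the bound promoter itself. TOC1 had the sole overlap, a gained region from 38 to 537 bp that shared 100 bp with the WUS-GR region over its start site, and 3.79% of all WUS-GR regions overlapped a gained region. No WUS-GR region of a clock gene overlapped a lost region, against 4.98% of all WUS-GR regions. TOC1 also had a second gained region from -1962 to -1463 bp and lost regions from -962 to -463 bp and from 4038 to 4537 bp. Its upstream regions were assigned to the neighbouring gene AT5G61370 and the last one to AT5G61390.

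The nearest changes at the other genes were separated from the WUS-GR region by 100 bp or more. In PRR7, 2 lost windows covered the first part of the gene, from 30 to 1029 bp, 100 bp away from the WUS-GR region, and a gained region lay past its end at the gene CDL1. In LUX, a gained region covered 459 to 958 bp, in coding sequence and 500 bp away from the WUS-GR region, and another spanned the end of the gene, from 3459 to 3958 bp. In GI the gained region was inside the gene, from 4750 to 5249 bp, far from its WUS-GR regions. CCA1 gained acetylation from -1590 to -1091 bp, at the neighbouring gene PSI-P. PRR5 gained it past its end, from 2546 to 4045 bp, at AT5G24460. In PRR9 the lost region was at the far edge of the gene window, from -2606 to -2107 bp, at AT2G46780, and in ELF4 it was past the gene end, from 953 to 1952 bp, and was assigned to AT2G40070, which starts beyond it. By midpoint, gained regions belonged to TOC1, LUX and GI and a lost region belonged to PRR7, whereas the others were assigned to a neighbouring gene.

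Within CCA1, PRR9 and GI, gained and lost H3K9/K14ac regions adjoined each other and were removed by the 73 bp rule, which happened at 3 of the 10 clock genes, against 20.9% of protein-coding genes. In PRR9 the gained region ran from 394 to 893 bp and the lost one from 894 to 1393 bp. In GI the order was the opposite, with the gained region from 2250 to 2749 bp and the lost one from 1750 to 2249 bp. In CCA1 the gained region, 19248001 to 19249500 on chromosome 2, covered the gene end, and the lost one, 19247501 to 19248000, lay just before it.

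For the repressive mark H3K27me3, the counts at the clock genes were near the shares over all protein-coding genes. Gained regions were present at 0 of the 10 genes, against 3.88% of protein-coding genes. Lost regions were present at 1 gene, LHY, against 14.2%. The LHY region ran from -2129 to -1630 bp and lay in the neighbouring gene UMAMIT28 (AT1G01070), so no H3K27me3 region lay in the body or the near promoter of a clock gene.

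Considered over all 6 lists, CCA1, PRR5, LUX and GI shared the most frequent pattern of the clock genes, a WUS-GR region with gained acetylation only, which 2318 protein-coding genes had (8.45%). PRR9 and ELF4 shared that of a WUS-GR region with lost acetylation only, found at 1922 genes (7%). TOC1 shared its pattern, with acetylation both gained and lost, with 1024 genes, and LHY shared its own with 600 genes. PRR7, the gene with regions in 4 lists, had the rarest pattern, seen at 34 genes (0.124%). This rarity rested on its single Col-0 RFP-trap window at the tRNA gene, without which PRR7 would have the pattern of TOC1.

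The other genes of the clock were read from a list of 29 clock-related genes chosen by function. WUS-GR regions were present at 18 of them, against 38.1% of protein-coding genes, with a median of 544 bp at those genes, against 400 bp over the protein-coding genes with a region. TIC, a regulator that works close to the core oscillator, had 5 regions and 2396 bp, more than any core gene, and it also had 200 bp under Col-0 RFP-trap windows. RVE1, a relative of CCA1 that links the clock to auxin, had 1792 bp, and CHE, the repressor of CCA1, had 1700 bp. RVE7 had 800 bp, and RVE8, an activator of evening genes, had 700 bp, as had BOA, the closest relative of LUX, and the coactivators LNK3 and LNK4. Thus all 4 LNK genes, which encode coactivators of the RVE proteins, had a region, with 600 bp at LNK2 and 300 bp at LNK1. The remaining genes with a region were RVE2, COR27, LWD1, XCT, LWD2, AT4G33980, JMJD5 and ZTL, with 81 to 488 bp, and that of ZTL reached only the edge of its gene window. The midpoint of the region nearest to the TSS lay at -208 bp in RVE1, -201 bp in CHE, -157 bp in RVE7, -138 bp in BOA, -89 bp in RVE8 and -65 bp in LNK3, values that lie within the range of the core clock genes, as do those of TIC, XCT, RVE2, COR27 and LNK2. The others lay outside that range, at -2470 bp in ZTL, -1627 bp in LNK1, 105 bp in JMJD5, 129 bp in AT4G33980, 230 bp in LNK4, 1721 bp in LWD2 and 1841 bp in LWD1. The genes without one included PRR3, RVE4, the F-box genes FKF1 and LKP2, GRP7 and the 4 genes of the ELF4-like family.

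**Figure D5:**
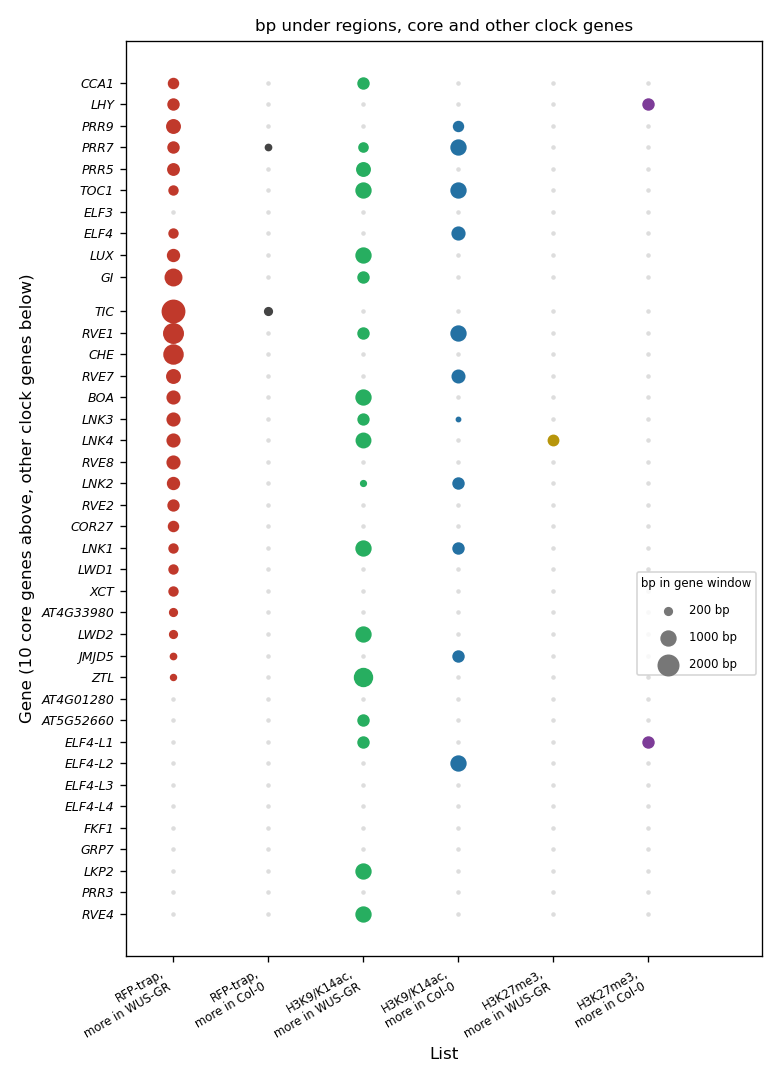
Points give the bp under the regions of each list in the gene windows of the 10 core clock genes (upper block) and 29 other clock genes (lower block), with the area growing with bp and grey dots for 0. The first column holds 9 core and 18 other genes, and TIC has the largest point with 2396 bp.

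Among these 29 genes, gained H3K9/K14ac regions were present at 12, against 33.1% of protein-coding genes, namely RVE1, RVE4, AT5G52660, LNK1, LNK2, LNK3, LNK4, ZTL, LKP2, BOA, ELF4-L1 and LWD2. Lost ones were present at 7, against 28.8% of protein-coding genes, namely RVE1, RVE7, LNK1, LNK2, LNK3, ELF4-L2 and JMJD5, although the overlap at LNK3 was 2 bp. Changed acetylation together with a WUS-GR region was found at 10 of them, against 23.3% of protein-coding genes. These 10 were among 18 with a WUS-GR region, against 6394 of the 10452 protein-coding genes with one. Gained H3K27me3 was seen at 1 gene, LNK4, against 3.88% of protein-coding genes, and lost H3K27me3 at 1 gene, ELF4-L1, against 14.2%. The 27 WUS-GR regions of these genes held a G-box in 14 cases (51.9%) and an evening element in 6 (22.2%), against 22.6% and 3.82% of all WUS-GR regions. CACATG was in 14 (51.9%), against 26.7% of all WUS-GR regions and 2 of the 14 regions of the core genes. TTAATGG was in 6 (22.2%, against 9.33%), the TCP word in 5 (18.5%, against 5.04%) and the CCA1-binding site in 4 (14.8%, against 8.31%).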

How the data were processed

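The authors mapped the reads to TAIR10 with BWA, compared the genotypes with the hidden Markov model program hiddenDomains and deposited the windows past a posterior threshold as positions, with no score, count or comparison column. The study's methods describe pooling of several immunoprecipitations for the WUS-GR and control libraries, after the account of RFP-trap. They do not mention pooling separately for the histone marks. The methods also give a lower dexamethasone concentration than the labels, which were followed. The lists were grouped by the sample titles. Adjacent windows were merged, gained and lost histone regions under 73 bp apart were removed as in the study's methods, and a region counted for a gene when it shared at least 1 bp with the gene window. Genes and sequence came from TAIR 10.1 of RefSeq, whose chromosome lengths equal those of TAIR10, and coordinates count from 1. Counts are set beside all protein-coding genes or all WUS-GR regions, and no test was run, since each group had 1 list. Words were searched as exact letters on both strands.

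All 10 clock genes are named. Of 30 other clock genes, 1 was dropped because the annotation gives it another symbol, and 3 had no symbol and are named by locus. Those with a WUS-GR or changed histone region are named, with bp for the 5 highest values and, chosen after the values were seen, for LNK1 and LNK2 and as a range for the rest. The genes and words were chosen with earlier results of these data known. Scripts used Python 3.11.15, numpy 2.4.6 and matplotlib 3.10.9 and were tested on simulated lists.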

Additional observations from a re-analysis of the deposited data

How the results depend on the processing

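Of 37 alternatives to 11 results, 23 gave a value within 1.5 times the one reported. Among these was every alternative for the count of the 10 clock genes with a WUS-GR region. That count was 8 with 1000 bp before the TSS to the gene end (26.5% of protein-coding genes) and 9 with at least 2 windows (35.6%). By midpoint it was 7 (23%), with PRR5 and LUX also without one. With 1000 bp before the TSS to the gene end in place of the gene window, gained H3K9/K14ac was at 3 clock genes (22.9% of protein-coding genes), lost H3K9/K14ac at 2 (19.5%), lost H3K27me3 at 0 (9.04%), and a WUS-GR region with changed acetylation at 4. With each region assigned to 1 gene by its midpoint, gained H3K9/K14ac was at 3 clock genes (17.9%) and lost H3K9/K14ac at 1 (16%). Lost H3K27me3 was then at 0 (7.29%) and a Col-0 RFP-trap region at 0 (1.32%). Under that rule 2 regions, those of TOC1 and GI, held an evening element. They were out of fewer than the 14 regions, since those of PRR5 and LUX, among others, went to neighbouring genes. With regions of at least 2 windows, gained H3K9/K14ac was at 1 clock gene (PRR5; 11.7%), lost H3K9/K14ac at 2 (PRR7 and ELF4; 8.21%), lost H3K27me3 at 0 (6.92%), a Col-0 RFP-trap region at 0 (0.343%), and a WUS-GR region with changed acetylation at 3. With opposing regions kept, gained and lost H3K9/K14ac were at 7 and 6 clock genes, against 49.2% and 46% of protein-coding genes. For a WUS-GR region together with changed acetylation, no share over protein-coding genes is available at these settings. The acetylation counts rest largely on single windows and on neighbouring genes. Without depth or scores, a gene without a window, ELF3 included, cannot be told apart from one just under the threshold. No paired analysis was possible because a single list stood for each group.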
